A study of Mus musculus with 5 samples.

Results

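Core spliceosome genes were examined for trimethylation of histone H3 at lysine 36 (H3K36me3) in mTEClo, the medullary thymic epithelial cells with low CD80. The rule that picks the genes uses only their names, but it was written with earlier results of these data known. They are the protein-coding RefSeq genes whose symbols start with Prpf, Sf3, Snrnp, Snrp or Lsm, together with U2af1, U2af2, Plrg1, Cdc5l and Crnkl1. The rule found 61 of 21887 protein-coding genes. Of these, 2 match by letters only: Lsmem1 and Lsmem2 encode membrane proteins and have no place in the spliceosome, so 59 genes fit the label. They were kept among the 61 and had no peak.

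The cells were sorted from the thymus of wild-type B6 mice as EpCAM+ UEA-1+ Ly51lo CD80lo cells, and no group carried any other allele or treatment. The 5 samples are 2 ChIP libraries made with an antibody to H3K36me3, named series 1 and series 2, and 3 input libraries without antibody (2 of series 1 and 1 of series 2). Animals were processed singly, but the labels do not say which mouse gave which library, and give no age. The spread between the series may therefore be technical, biological or both, and no test across samples can be made with 1 ChIP library per series. All values below describe these libraries.

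Splicing removes introns from transcripts while RNA polymerase II is often still at work on the gene. The U1 particle recognises the 5′ splice site, U2AF and the U2 particle recognise the 3′ splice site and the branch point, and the U4/U6.U5 tri-snRNP then joins and is rearranged into the catalytic spliceosome with the help of the Prp19 complex. H3K36me3 is placed on nucleosomes behind elongating polymerase, so that bodies of transcribed genes usually carry it and their start sites do not.

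Series 1 held 7231 broad peaks and series 2 held 10243, each list called against its own input. The median width was 483 bp in series 1 and 222 bp in series 2, where 65.6% of the peaks were within 9 bp of the narrowest width of 216 bp. The lists carry a score for each peak, from 10 to 378 in series 1 and from 10 to 483 in series 2, and no read counts. Sequencing depth behind a peak is thus unknown, and a gene with no peak was below detection in that library. Among markers of the labelled cells, the basal keratin gene Krt5 had 1 peak in each series and Trp63 had 2 in series 1, while Epcam, Krt14, Krt8 and Foxn1 had none. None of 5 haematopoietic markers and none of 4 endothelial or fibroblast markers had a peak in either list. Of all protein-coding genes only 27.4% had one, so that these few markers cannot show which cells were present.

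Core spliceosome genes carried H3K36me3 peaks more often than protein-coding genes as a whole. In series 1, 21 of the 61 (34.4%) had at least 1 bp of a peak between their annotated ends, where the share over all protein-coding genes was 16.3%. In series 2 the count was also 21 (34.4%), against 19.5% of all genes. Peaks of both series were found in 13 members (21.3%), against 8.42% of all genes, and of either series in 29 (47.5%), against 27.4%. The median covered share, the part of a gene's span that lies under peaks, was 0 in each series both for the 61 members and for all protein-coding genes. The 32 members without a peak are accounted for under their classes below.

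The sites where peaks of both libraries shared bases lay in 4 members, one of them at 2 places. Plrg1, a WD40 protein of the Prp19 complex, had 2 such sites, at chr3:83058607-83059109 and chr3:83062092-83062524. Prpf38b, a paralogue of the splicing factor Prpf38a, had 1 at chr3:108904260-108904490. Prpf8, the large U5 protein at the heart of the catalytic spliceosome, had 1 of 83 bp at chr11:75505839-75505921. U2af2, the subunit of U2AF that binds the polypyrimidine tract, had 1 at chr7:5075710-5076058. All coordinates are on mm10, and the gene table used gives no exons, so that exon and intron cannot be told apart within a gene.

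Each of these sites lay between the annotated ends of its gene, as only peaks that touch a gene were counted. The start regions of Plrg1, Prpf38b and Prpf8 were free of peaks. U2af2 had no promoter entry, so its start region was not examined. The 250 bases before the annotated start are shown for the 3 of these genes with a RefSeq promoter entry (GRCm38.p6), as the reference points from which the distances are counted. Each is written 5′ to 3′ on the gene's strand, and capitals mark the letters TGACG or their reverse complement CGTCA, the half-site of the cyclic AMP response element. The motif was picked after the sequences were seen.
Plrg1, chr3:83055288-83055537, plus strand: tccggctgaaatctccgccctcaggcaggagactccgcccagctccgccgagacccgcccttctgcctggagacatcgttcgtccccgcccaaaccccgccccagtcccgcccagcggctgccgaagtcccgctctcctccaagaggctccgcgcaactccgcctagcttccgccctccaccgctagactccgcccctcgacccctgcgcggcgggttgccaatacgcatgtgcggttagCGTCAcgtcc
Prpf38b, chr3:108911730-108911979, minus strand: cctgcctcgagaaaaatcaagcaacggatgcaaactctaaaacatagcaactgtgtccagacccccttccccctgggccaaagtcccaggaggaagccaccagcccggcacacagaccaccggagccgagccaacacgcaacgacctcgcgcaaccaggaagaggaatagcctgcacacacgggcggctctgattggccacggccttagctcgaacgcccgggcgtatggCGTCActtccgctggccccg
Prpf8, chr11:75486527-75486776, plus strand: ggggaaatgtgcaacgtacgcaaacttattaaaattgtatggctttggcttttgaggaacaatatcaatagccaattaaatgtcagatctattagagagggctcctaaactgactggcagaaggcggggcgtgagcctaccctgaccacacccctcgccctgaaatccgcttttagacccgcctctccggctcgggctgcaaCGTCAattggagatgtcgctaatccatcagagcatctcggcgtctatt

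The motif begins 10 bases before the start of Plrg1, 20 before that of Prpf38b and 48 before that of Prpf8. It is common: 12 of 61 promoter windows of members (19.7%) and 20.2% of 21263 windows of protein-coding genes held it on either strand in these 250 bases, so its share among members is close to that of promoters in general. RefSeq promoter windows, which run from 250 bases before to 50 after a start, were found for 50 of the 61 members, some with several starts. No peak of either series touched any of the 61 windows. Over all protein-coding genes, 11 windows (0.0517%) were touched in series 1 and 14 (0.0658%) in series 2, so the lack of peaks at starts is shared with other genes.

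**Figure D1:**
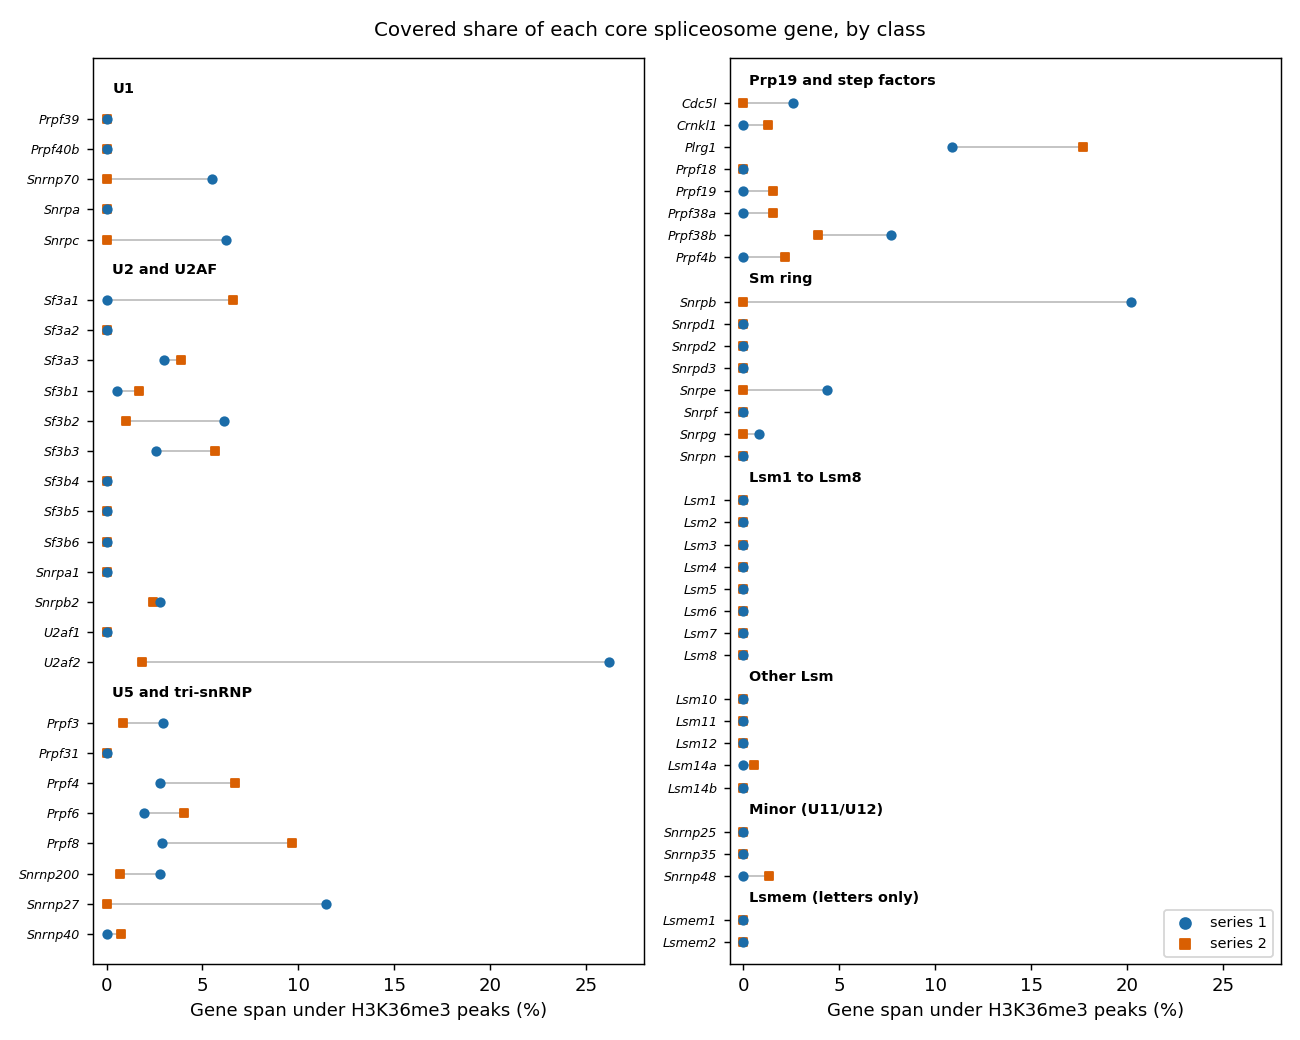
Percent of each gene's span under H3K36me3 peaks (x axis) for the genes that match the rule (y axis, grouped by class), with 1 U1 gene not drawn. Blue circles are series 1, orange squares are series 2 and a grey line joins the values of 1 gene; where both are 0 the circle covers the square. U2af2 and Snrpb reach 26.2% and 20.2% in series 1, Plrg1 is high in both series, and all of Lsm1 to Lsm8 lie at 0.

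Peaks in U1 snRNP genes came from series 1 alone. The 6 genes of this class include the 3 specific proteins of the particle. Snrnp70, which binds stem-loop I of U1 RNA, had 1 peak in series 1, which took up 5.50% of the gene, and a covered share of 0 in series 2. Snrpc, the zinc finger protein that helps U1 pair with the 5′ splice site, had 6.24% and 0. The scores of these peaks were 24 and 21, near the series 1 median of 21. Snrpa, Prpf39 and Prpf40b, with spans between 9.27 and 27.1 kb, had no peak in either series. No gene of this class was thus hit in series 2, against 19.5% of all protein-coding genes, or in both libraries, against 8.42%. With only 6 genes in the class, a count of 0 is not far from these shares. No trait of the class can be read from it.

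The U2 class gave the largest number of genes hit in both series, 6 of 13 (46.2%, against 8.42% of all protein-coding genes). Its members fall into those with peaks in each library and those with none in either, apart from Sf3a1. The SF3B complex clamps U2 to the branch site. Its largest subunit gene, Sf3b1, was covered over 0.572% (series 1) and 1.69% (series 2). Sf3b2 had 6.11% and 1.03%, and Sf3b3 2.57% and 5.65%. Thus Sf3b2 was the better covered in series 1 and Sf3b3 in series 2, each with 3 peaks in all. Sf3b4, Sf3b5 and Sf3b6, which encode the small subunits and span 0.734 to 10.1 kb, had none, while Sf3b1, Sf3b2 and Sf3b3 span 42.3, 21.5 and 36.3 kb.

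The SF3A complex joins SF3B to the rest of U2. Sf3a3 was the most even gene of the pair with peaks, at 2.98% in series 1 and 3.87% in series 2, 3.43% ± 0.628 (SD, n = 2). Sf3a1 had 0 in series 1 and 6.59% in series 2, from 2 peaks of which the wider measured 1230 bp. Sf3a2, with a span of 6.19 kb, had none. Of the U2-specific proteins, Snrpb2 had 1 peak in each library, over 2.79% and 2.44% of its span, 2.62% ± 0.252 (SD, n = 2), and its partner Snrpa1 had none in 14.3 kb. The peaks of Snrpb2 did not overlap; they lay 2.08 kb apart.

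U2AF was split between its subunits. U2af2, on chromosome 7 from 5060885 to 5079945, had 5 series 1 peaks that covered 26.2% of the gene, with scores of 34, 17, 76, 25 and 44, and 1 series 2 peak over 1.84%, with a score of 22. The score of 76 was matched or exceeded by 1.95% of series 1 peaks. The only series 2 peak of U2af2 began 1 bp before the fourth series 1 peak in order of coordinate and lay within it otherwise. The gene was therefore high in series 1 and low in series 2, 14.0% ± 17.2 (SD, n = 2), a spread wider than the mean. U2af1, which encodes the subunit that reads the AG of the 3′ splice site, had no peak in either list over 12.1 kb.

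**Figure D2:**
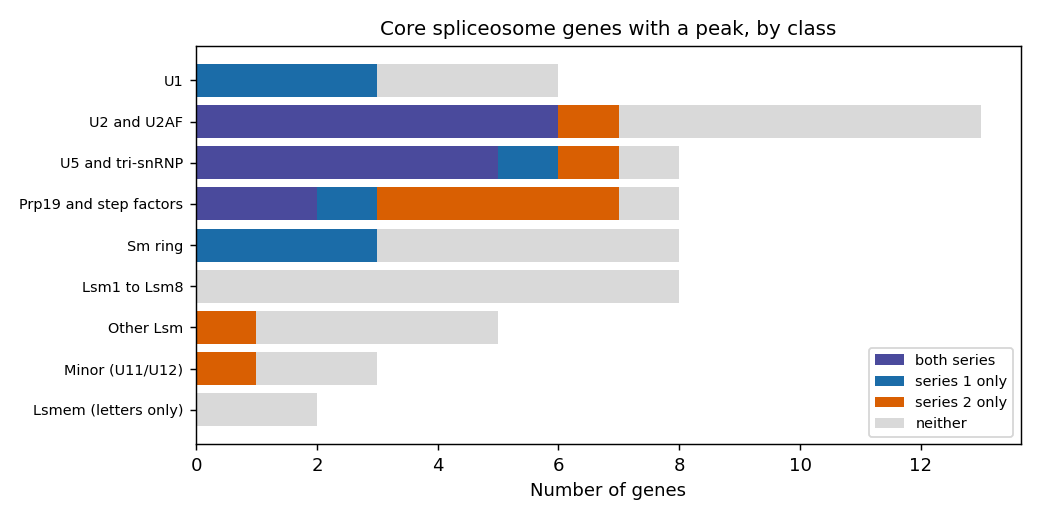
Number of genes (x axis) in each class of core spliceosome genes (y axis) with a peak in both series, in series 1 only, in series 2 only or in neither. Genes hit in both series lie in 3 classes, U2 with U2AF (6 genes), U5 with the tri-snRNP (5) and Prp19 with step factors (2).

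Genes of U5 and of the tri-snRNP were the class most often hit in both libraries by share, with 5 of 8. This is 62.5%, against 8.42% of all protein-coding genes, and in either series 7 of 8 were hit (87.5%, against 27.4%). The classes differ in length, with a median span of 24.2 kb here and 14.3 kb in the U2 class, and the ranking was not adjusted for it. Of all genes of 20 to under 40 kb, 7.81% were hit in both series. Prpf8 was covered over 2.88% of its length by 1 series 1 peak and over 9.66% by 4 series 2 peaks. Snrnp200, the helicase that unwinds U4 from U6, had 2.80% and 0.686%. Prpf6, which bridges U5 with U4/U6, held 1 series 1 peak over 1.95% and 5 series 2 peaks over 4.05%. Its series 1 peak at chr2:181646372-181647428 lay 384 bp from the nearest series 2 peak, so that Prpf6 just missed sharing bases. Prpf3 and Prpf4, which form a pair on the U4/U6 duplex, had 2.97% and 0.869%, and 2.80% and 6.70%, in series 1 and 2.

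Of the remaining genes of this class, Snrnp27, a small tri-snRNP protein, had 1 series 1 peak of 1068 bp over 11.5% of its span and 0 in series 2. Snrnp40, a WD40 protein of U5, had 0 and 0.759%. Prpf31, which holds U4/U6 to U5, had no peak in 12.5 kb. In series 1 no gene of the class had more than 1 peak, against 4.87% of all protein-coding genes. For 8 genes that count is near the share of all genes. In series 2 Prpf4, Prpf6 and Prpf8 had 2, 5 and 4 peaks, so that 3 of 8 had more than 1 (37.5%, against 6.34%).

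The class of the Prp19 complex and step factors, not all of them of later steps, had 7 of 8 genes hit in either series. This is 87.5%, against 27.4% of all protein-coding genes. In series 1 there were 3 (37.5%, against 16.3%) and in series 2 there were 6 (75%, against 19.5%). Plrg1 held 2 series 1 peaks over 10.9% of the gene and 5 series 2 peaks over 17.7%, 14.3% ± 4.84 (SD, n = 2). It was the only member with at least 10% of its span covered in both series, a level that 4 of all protein-coding genes (0.0183%) reached. Its series 1 peaks had scores of 33 and 18. In series 2 the pair at the same sites scored 13 and 12, near the minimum of 10, and the highest score, 61, belonged to a peak of 226 bp at chr3:83066156-83066381 where series 1 had none. That score was matched or exceeded by 1.31% of series 2 peaks.

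Prpf38b was the other gene of this class with peaks in both libraries, over 7.69% and 3.90% of its span. Its shared site had scores of 59 and 61, and was the only site in any member where both libraries scored at least 50; 3.93% of series 1 peaks and 1.31% of series 2 peaks reached those values. Prpf19, the ubiquitin ligase after which the complex is named, had 0 in series 1 and 1.55% in series 2. Its peak had a score of 67, the highest of any member in series 2. Cdc5l, the Myb-like core subunit, had 2.60% and 0, and Crnkl1, a scaffold with tetratricopeptide-like repeats, 0 and 1.29%. The 4 Prp19 complex genes thus differed in the series that gave the peak.

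Prpf38a, a component of the precatalytic spliceosome, had 0 and 1.56%, and its peak also lay within the neighbouring gene Orc1. It was the only member peak of 65 that lay in another annotated gene, although 39 of the 61 members have a protein-coding neighbour within 5 kb. Prpf4b, a kinase that phosphorylates tri-snRNP proteins, had 0 and 2.19% from 2 peaks. Prpf18, a factor of the second catalytic step, had no peak in 30.1 kb.

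The Sm proteins form the ring around U1, U2, U4 and U5 RNA. Of their 8 genes, 3 were hit in the series 1 list (37.5%, against 16.3% of all protein-coding genes). None was hit in the series 2 list, against 19.5% of all genes. The median span of the class was 7.6 kb, and 2.41% of all genes under 10 kb were hit in series 2. The lack of series 2 peaks is thus near the share of genes of such length. Snrpb had 1 series 1 peak of 1566 bp over 20.2% of its span of 7.75 kb, with a score of 21. Snrpe had 4.38%, from a peak of 281 bp with a score of 53, which 5.23% of series 1 peaks reached. In Snrpg the peak crossed the 3′ end of the gene and only 61 of its 300 bp lay within it, 0.828% of the span. Snrpd1, Snrpd2, Snrpd3 and Snrpf, of 3.29 to 17.4 kb, had none. Snrpn, an imprinted gene best known from brain, had none either over an annotated span of 467.7 kb, the longest of all members.

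The 8 genes Lsm1 to Lsm8, whose products form the ring on U6 RNA in the nucleus and a related ring for mRNA decay in the cytoplasm, had no peak in either series. They have a median span of 5.47 kb and a range of 2.39 to 18.7 kb, and 6 of them are under 10 kb, a length at which 1.78% of all protein-coding genes were hit in series 1 and 2.41% in series 2. Among other genes with an Lsm domain, Lsm14a, which acts in translational repression in the cytoplasm, had 0 and 0.567%. Lsm10 and Lsm11 of the U7 particle, Lsm12 and Lsm14b had no peak, with spans of 2.02 to 23.8 kb. In the minor spliceosome, which removes the rare U12-type introns, Snrnp48 had 0 and 1.35%, and Snrnp25 and Snrnp35 had none.

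Long genes hold peaks more often, so the members were set beside protein-coding genes of their own length class. Their median span was 14.5 kb, shorter than the 17.2 kb of all protein-coding genes. In series 1, peaks were found in 6 of 21 members under 10 kb (28.6%, against 1.78% of all genes of that class), 6 of 20 of 10 to under 20 kb (30.0%, against 10.1%), 5 of 14 of 20 to under 40 kb (35.7%, against 20%) and 4 of 6 of 40 kb and over (66.7%, against 37.1%). In series 2 the counts were 2 of 21 (9.52%, against 2.41%), 7 of 20 (35.0%, against 11.9%), 9 of 14 (64.3%, against 21.5%) and 3 of 6 (50%, against 45.5%). The share of members with a peak was above that of all genes in each length class of series 1, and in series 2 below 40 kb. At 40 kb and over in series 2 it was close to that of all genes, with 3 of 6 members hit. The classes match length only roughly. Under 10 kb the median span was 5.5 kb in members and 3.7 kb in all genes. At 40 kb and over the members were the shorter, at 50.1 against 83.3 kb.

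Counted in both series, 2 of 21 members under 10 kb had peaks (9.52%, against 0.391% of all genes), namely Prpf38b and Snrpb2. Of 10 to under 20 kb there were 4 of 20 (20%, against 2.78%), namely Plrg1, U2af2, Sf3a3 and Prpf4. In the class of 20 to under 40 kb 5 of 14 were hit (35.7%, against 7.81%), and at 40 kb and over 2 of 6 (33.3%, against 23.1%), the latter being Sf3b1 and Prpf6. The 6 short members hit in series 1 were Snrpb, Snrpb2, Snrpe, Snrpg, Prpf38b and Snrnp27, and 3 of them are Sm genes. Snrpg counts among them through only 61 bp at its 3′ end.

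**Figure D3:**
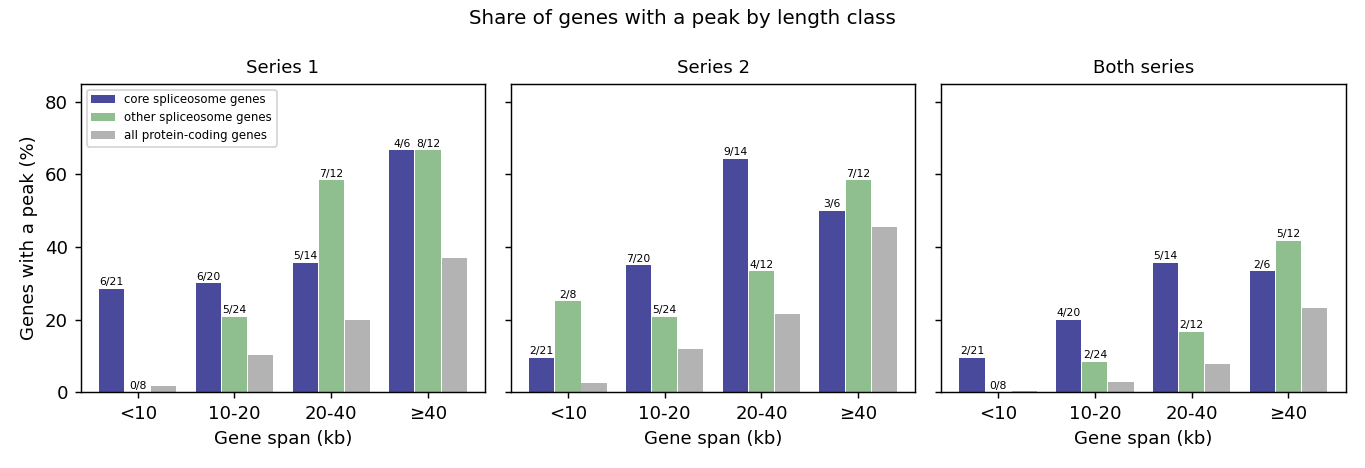
Percent of genes with a peak (y axis) by span in kb (x axis) in series 1, series 2 and both, for core spliceosome genes, a list of other spliceosome genes and all protein-coding genes. Numbers above the bars are genes with a peak over genes in the class. The core genes stand above all genes in each class, except that at 40 kb and over in series 2 the shares are close (50% and 45.5%).

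Measured by bases, members had 21141 bp under peaks in series 1 and 17221 bp in series 2 of a total span of 1496 kb. This is 14.1 bases per kb in series 1, against 3.15 over all protein-coding genes, and 11.5 bases per kb in series 2, against 2.24. Snrpn alone makes up 467.7 kb of the members' span, and without it the values were 20.6 and 16.8. U2af2 gave the most bases in series 1 and Plrg1 in series 2, and without that gene the values were 10.9 and 9.64. Among genes with no protein-coding neighbour within 5 kb, members had 24.8 and 15.2 bases per kb, against 2.62 and 1.85.

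Peaks in members were wider than those of the whole list in series 1, with a median of 719 bp against 483 bp, and the 28 peaks ranged from 242 to 1595 bp. In series 2 the median was 233 bp against 222 bp over 37 peaks, and 13 of them (35.1%) were within 9 bp of the narrowest width, where the whole list had 65.6%. Scores in members had a median of 21 in each series, against list medians of 21 in series 1 and 16 in series 2. A score of at least 20 was held by 17 of 28 member peaks in series 1 (60.7%, against 55.8% of the list) and by 19 of 37 in series 2 (51.4%, against 35.7%). At least 50 was held by 3 in series 1 (10.7%, against 6.26% of the list), in U2af2, Prpf38b and Snrpe, and by 3 in series 2 (8.11%, against 2.48%), in Prpf19, Prpf38b and Plrg1.

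Where the peaks lay between the gene ends was read for the 25 hit members with a known strand. In series 1 the median peak centre lay at 50.2% of the span from the 5′ end over 21 peaks, against 60.9% over 4138 pairs of gene and peak among all protein-coding genes. In series 2 it lay at 69.3% over 35 peaks, against 58.9% over 5204. Past the midpoint of the gene were 11 of 21 peaks (52.4%, against 62.2%) in series 1 and 23 of 35 (65.7%, against 59.6%) in series 2. Members thus lay below all genes in series 1 and above them in series 2, and the libraries give no common shift. The peak nearest to a start was that of Snrpe in bases, centred 1.86 kb downstream, and that of Sf3a3 by share of the span, at 11.7%.

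**Figure D4:**
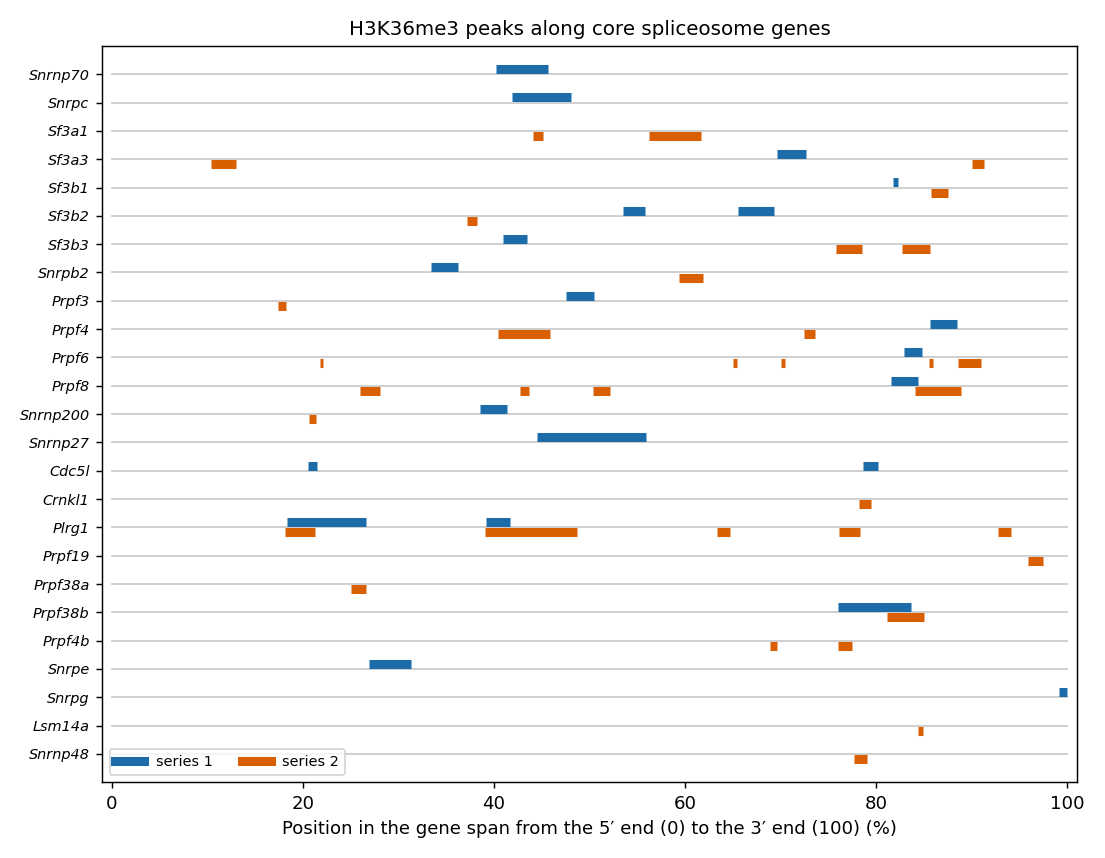
Peaks of series 1 (blue) and series 2 (orange) along the 25 core spliceosome genes with a peak and a known strand (y axis), as percent of the gene span from the 5′ end to the 3′ end (x axis). Bars are drawn to the width of each peak; those of both series meet in Plrg1 (2 sites), Prpf8 and Prpf38b, and U2af2 is not drawn because its strand was not in the table used.

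The positions of single genes show how far the libraries coincide. In Plrg1 the peaks at the first shared site were centred at 22.5% (series 1) and 19.7% (series 2) of the span and those at the second at 40.4% and 43.9%, and series 2 had 3 more peaks towards the 3′ end. In Prpf8 the shared site lay near the 3′ end, at 83.0% by the series 1 peak and 86.5% by the series 2 peak. In Prpf38b it lay at 79.8% and 83.1%. Sf3b1 had its peaks at 82.0% and 86.6%, 1.47 kb apart. In Prpf3 and Sf3b3, by contrast, the nearest peaks of the libraries were 7.55 and 11.8 kb apart.

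Of the 13 members hit in both series, 4 (30.8%) had peaks that shared bases, against 17.6% of the 1843 protein-coding genes hit in both. The members are shorter, with a median span of 21.5 kb against 86.5 kb. In the length classes the counts were 1 of 2 (64.5% of all genes of that class hit in both), 2 of 4 (37.6%), 1 of 5 (28.3%) and 0 of 2 (12.5%), from the shortest to the longest class, so that within a length class the members were on either side of all genes. The median distance between nearest peaks of the libraries was 2.08 kb in members and 7.36 kb in all genes hit in both. Within length classes it was 1.04 kb in members under 10 kb against 0 in all such genes, 1.09 against 1.05 kb at 10 to under 20 kb, 5.53 against 2.54 kb at 20 to under 40 kb, and 0.927 against 12.4 kb at 40 kb and over. The members were thus the closer only in the longest class, which holds 2 of them.

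Peaks were also counted in other spliceosome genes, which the naming rule leaves out. A list of 56, among them helicases, further U2 proteins and members of the Prp19-related complex, had 20 genes with a peak in series 1 (35.7%, against 16.3% of all genes), 18 in series 2 (32.1%, against 19.5%), 9 in both (16.1%, against 8.42%) and 29 in either (51.8%, against 27.4%). Their median span was 17.7 kb. By length, the direction of the difference changed with the series under 10 kb and at 20 to under 40 kb. Under 10 kb none of these 8 was hit in series 1 and 2 were hit in series 2, where the core genes had 6 and 2 of 21. At 20 to under 40 kb 7 of 12 were hit in series 1 and 4 of 12 in series 2, where the core genes had 5 and 9 of 14. At 10 to under 20 kb the core genes had the higher share in series 1 (30.0%, against 20.8%) and in series 2 (35.0%, against 20.8%). At 40 kb and over the share was 66.7% in each list in series 1. In series 2 it was 50% in the core genes and 58.3% in the others. The difference between the lists was not tested. The 9 genes hit in both series include 3 of the helicases that drive steps of the cycle. Dhx15, which takes the spliceosome apart, was covered over 4.02% in series 1 and 0.558% in series 2. Dhx16 had 1.90% and 4.56%, and Dhx8, which releases the spliced mRNA, had 1.09% and 1.93%.

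Aqr, an intron-binding helicase, had 2.34% and 1.69%, and Cwc22, which links splicing to the exon junction complex, 3.13% and 4.91%. Ik and Smu1, which act together before activation, had 8.77% and 4.71%, and 3.09% and 1.97%. Luc7l2, a U1-associated protein, had 5.08% and 2.00%, so that it had peaks in both series where none of the U1 genes above did. U2surp, a U2-associated protein, had 1.38% and 0.396%.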

How the data were processed

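The authors deposited 1 list of broad peaks for each ChIP library, each peak with its position, a name and a score in whole numbers; what the score measures is not stated. The submitters' processing notes name Bowtie2, SAMtools, MACS2 and mm10 and give no version. Per the peak names in the files, the series 1 ChIP was called against 2 inputs together and the series 2 ChIP against 1. A list called at another depth or against other inputs holds other peaks, so scores were ranked within a list only.

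Gene spans came from RefSeq on GRCm38.p6, whose coordinates are those of mm10, for chromosomes 1 to 19, X and Y. Strands and promoters came from the RefSeq promoter table, which matched 50 of 61 members. Peaks were intersected with spans, and a gene with at least 1 bp of a peak was called hit. Overlap code was tested on simulated data. No test was made, since each series has 1 ChIP library. Members, classes and lists were chosen with earlier results of these data known. All hit members were named but 1, which is not reported here, and the other spliceosome genes hit in both series. Input reads were not analysed here. Python 3.11.15, numpy 2.4.6 and pandas 2.3.3 were used.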

Additional observations from a re-analysis of the deposited data

How the results depend on the processing

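The counts of members with a peak (21 in series 1, 21 in series 2, 13 in both, 29 in either) stayed within 1.5 times when peaks had to put 100 bp or 1% of the span in the gene or have their centre there, when only the wider series 2 peaks were kept, and without the Lsmem genes or the 5 genes named beside the pattern. With a score of at least 20, 5 were hit in both (8.20%, against 3.3% of all genes). With at least 50 the counts were 3, 3, 1 and 5 (4.92%, 4.92%, 1.64% and 8.20%, against 1.48%, 0.763%, 0.0868% and 2.16% of all genes), and with 10% of the span under peaks 4, 1, 1 and 4 (6.56%, 1.64%, 1.64% and 6.56%, against 0.525%, 0.233%, 0.0183% and 0.74%). The 22 members with no protein-coding neighbour within 5 kb gave 11, 8, 6 and 13 (50%, 36.4%, 27.3% and 59.1%, against 15.6%, 18.8%, 8.47% and 25.9% of such genes). Their median covered share was 0.143% ± 0.202 as a mean over both series (SD, n = 2). It came from series 1 alone, as the 8 of 22 hit in series 2 are too few to raise that median. The score, span and neighbour settings keep fewer peaks or genes or ask more of a gene, so these counts could only fall. The shares of members with no neighbour were higher than those of all 61 members (34.4%, 34.4%, 21.3% and 47.5%). Without replicate 1 or 2 the count in both becomes that of the other series, 21 each way.

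The mean over both series of the bases under peaks was 12.8 per kb. Under alternatives chosen after seeing the data it was 7.10 with a score of at least 20, 20.01 among members with no neighbour, 18.7 without Snrpn and 10.3 without the member with the most bases in each series; leaving out either replicate gave 11.5 to 14.1. With a score of at least 20, members whose peaks shared bases numbered 2 of the 5 hit in both (40%, against 18.3% of all genes hit in both), in place of 4 of 13. The mean of the median peak positions was 59.8%, and 56.9% with a score of at least 20. At that score the series lay further apart, at 44.0% in series 1 and 69.8% in series 2, where all peaks gave 50.2% and 69.3%. No paired analysis was possible because no comparison between groups was made and the inputs have no peak list here. Depth is unknown, so peaks that were missed cannot be counted.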

Other observations

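Of the 32 members without a peak, 3 had a peak within 5 kb of an annotated end, a distance chosen after seeing the data. This is 9.38%, against 6.23% of the 15897 protein-coding genes without a peak. Sf3b6, the small SF3B subunit that contacts the branch site, had a series 1 peak of 944 bp with a score of 13 that began 0.243 kb past its 3′ end, where no gene is annotated. Lsm10 had a series 2 peak of 460 bp with a score of 21 that began 0.521 kb past its 3′ end, also in no annotated gene. Near Snrpd3 a series 2 peak of 217 bp with a score of 12 lay 4.83 kb before the start, within Gucd1.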
